A study of Mus musculus with 4 samples.

Results

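Tuft cells of the mouse colon were followed here, in 130 of the 13158 cell barcodes that passed the limits on depth, genes and mitochondrial share. The cells were chosen by their own counts: a barcode was taken as a tuft cell when it held at least 4 UMIs (unique molecular identifiers, each standing for 1 captured RNA molecule) from at least 2 of the 5 genes Dclk1, Sh2d6, Rgs13, Trpm5 and Gnat3, at most 2 UMIs of Chga plus Chgb, fewer than 5 UMIs of Muc2, and under 0.5% of its UMIs from S100a8 plus S100a9. Batch 1 gave 89 tuft cells of 6914 barcodes and batch 2 gave 41 of 6244. No tuft barcode occurred in both batches, although 13 of all barcodes past the limits did.

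Tuft cells are scattered chemosensory cells of the epithelium, named for the bundle of stiff microvilli on their apical surface. They sense luminal compounds through a taste-type cascade, in which a G protein coupled to a receptor activates phospholipase C, releases calcium from internal stores and opens the cation channel Trpm5. In response they release acetylcholine, cysteinyl leukotrienes, prostaglandin D2 and the cytokine IL-25, and they depend on the transcription factor Pou2f3 for their formation.

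The study profiled digested adult C57/BL6J mouse colon by droplet single-cell RNA sequencing in 2 batches, each with 1 gene expression library and 1 library of hashtag antibodies. Hashtags are barcoded antibodies that mark which condition a cell came from, and the 4 conditions of a batch were mixed after tagging, sorted for viable cells and loaded together. Their features are named TG_DSS, TG_WT, Ctrl_DSS and Ctrl_WT. By name these are JUP-KO mice given DSS (dextran sulfate sodium, which injures the colon lining), untreated JUP-KO mice, wild-type mice given DSS and untreated wild-type mice. By the order of antibody numbers in the protocol TG_WT and Ctrl_DSS would change places, and nothing in the sources used here settles this. Groups are therefore called by their tag throughout. JUP-KO names a knockout of Jup, which encodes the junction protein plakoglobin. The promoter or cell type behind the knockout, the DSS dose and timing, the age beyond adult, and whether the batches were separate mice are details not given in the sources used here. If the samples were not separate mice, the spread behind each p-value is technical.

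The libraries held 133919905 and 95408149 gene UMIs over all barcodes. Tuft cells had a median of 6153 UMIs and 2520 genes in batch 1, and 5998 UMIs and 2299 genes in batch 2. The other epithelial barcodes, which carried epithelial keratin and junction genes and at most 1 UMI of the 5 genes, had medians of 16889 and 15486.5 UMIs. The median mitochondrial share was 10.5% and 11.5% in tuft cells, against 4.68% and 3.20% in other epithelial barcodes. Tuft cells were thus the shallower and the more mitochondrial of these groups in both batches, and summed they held 997344 and 320953 UMIs.

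Tuft cells made up 1.84% of the 4829 epithelial and tuft barcodes of batch 1 (95% exact Clopper-Pearson interval 1.48% to 2.26%) and 1.46% of 2799 in batch 2 (1.05% to 1.98%). The intervals overlapped, and like all intervals here they cover counting error only. The limits on other cell types had removed 17 of 106 barcodes past the 5-gene sum in batch 1 and 7 of 48 in batch 2. The 5 genes were usually found together: 48 of 89 tuft cells in batch 1 and 23 of 41 in batch 2 held all 5, and 4 and 1 cells held only 2. The median cell carried 40 UMIs of these genes in either batch, with a range of 4 to 275 in batch 1 and 5 to 132 in batch 2. Just inside the rule, 5 and 2 cells held 4 to 6 UMIs, and Ptprc was found in 2 of the 5 and in both of the others. Just outside it, no barcode held 2 or 3 UMIs from at least 2 of the genes, and 14 and 27 barcodes held at least 4 UMIs but from 1 gene alone. None of these barcodes from 1 gene alone carried a UMI of Ptprc, which most tuft cells carried.

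The genes that chose the cells are given as a description. Dclk1, a microtubule-binding protein kinase and the usual tuft marker (chr3:55242364-55539068, plus strand, GRCm38), stood at 2355 CPM in batch 1 and 3166 CPM in batch 2 in the summed tuft cells, against 0.227 and 0.101 CPM in other epithelial barcodes. CPM are UMIs of a gene per 1000000 UMIs of the summed cells. Rgs13, a regulator of G protein signalling (chr1:144138654-144177372, minus strand), had 898 and 997 CPM in tuft cells, against 0.136 and 0.0201 CPM elsewhere in the epithelium. Sh2d6, an SH2-domain adaptor (chr6:72513641-72521707, minus strand), had 727 and 928 CPM in tuft cells, against 0.273 and 0.302 CPM.

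The same pattern held for the 2 taste genes of the rule. Gnat3, the alpha subunit gustducin (chr5:17962549-18019834, plus strand), had 475 and 402 CPM in tuft cells, against 0.0455 and 0.0201 CPM in other epithelial barcodes. Trpm5, the calcium-gated channel of the cascade (chr7:143069153-143094642, minus strand), had 259 and 424 CPM in tuft cells, against 0.170 and 0.101 CPM. Free RNA, read from barcodes of at most 100 UMIs, held 21.5 and 13.7 CPM of Dclk1, far under the tuft level. A UMI of Gnat3 was found in 68.5% and 70.7% of tuft cells, against 0.0847% and 0.0363% of other epithelial barcodes at their greater depth. When every cell was thinned to 2000 UMIs, which left 84 and 38 tuft cells, Gnat3 was found in 45.2% and 47.4% of them. Dclk1 was then found in 84.5% and 92.1% of tuft cells, against 0.109% and 0.0749% of 4583 and 2670 other epithelial barcodes.

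**Figure D1:**
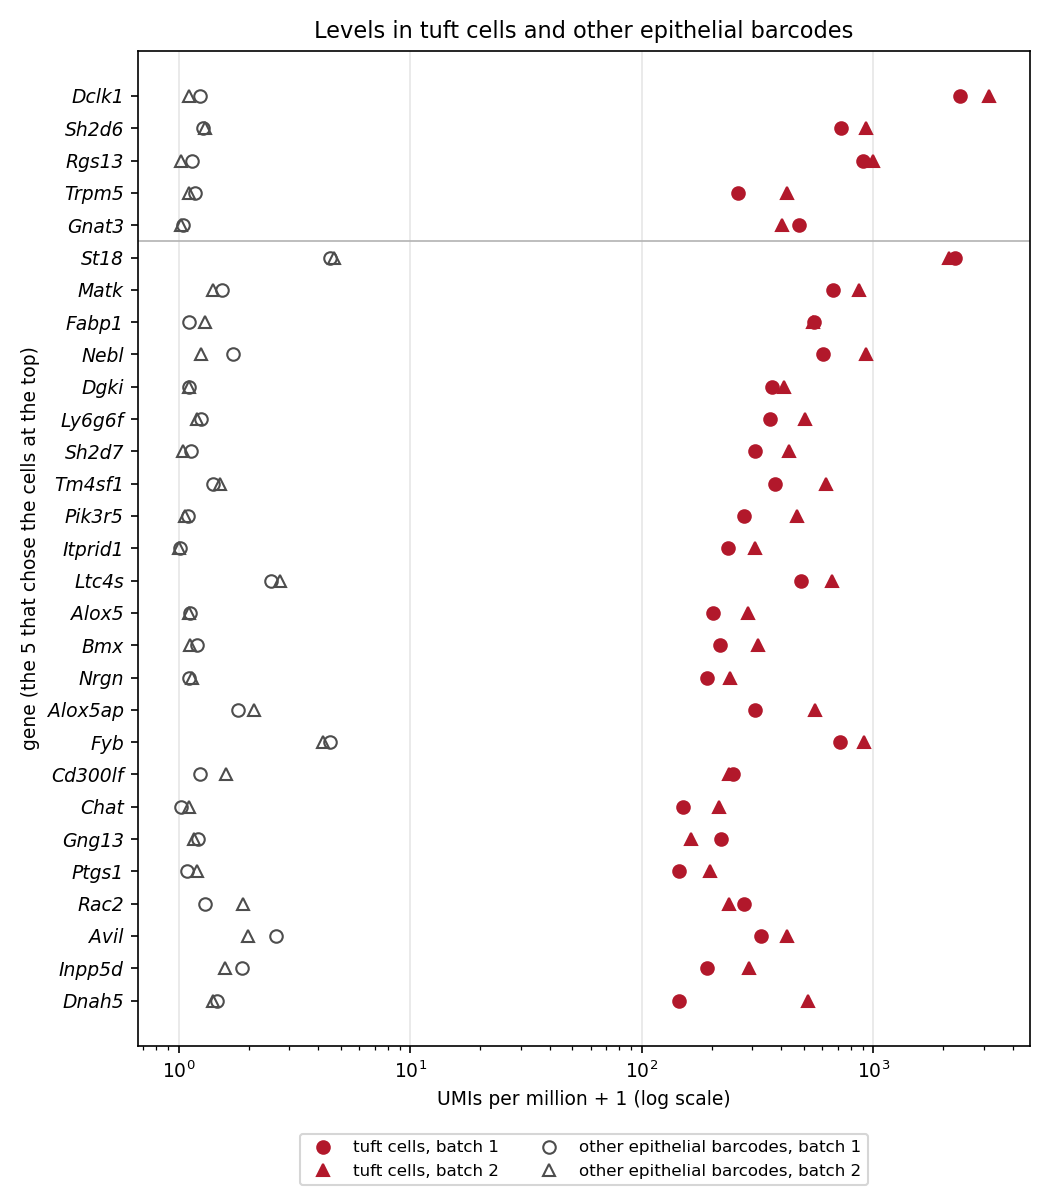
Level of each gene in summed tuft cells (filled) and summed other epithelial barcodes (open) in batch 1 (circles) and batch 2 (triangles), as CPM plus 1 on a log scale. The 5 genes at the top chose the cells, and the 24 below them are from the 25 with the highest ratios among the other genes, so the gap between filled and open symbols is a result of the choice.

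Among 6591 genes with at least 20 CPM in both batches of tuft cells or in both batches of other epithelial barcodes, 311 were at least 4-fold higher in tuft cells than in other epithelial barcodes in both batches (4.72% of those tested), on the scale of CPM plus 1. Another 78 were at least 4-fold lower (1.18%). The cells were chosen in this contrast, and a gene silent elsewhere enters the set only by being high in tuft cells, so these counts describe the cells and carry no test. Of the 311 genes, 177 (56.9%) were also at least 4-fold above enteroendocrine barcodes and 267 (85.9%) above goblet barcodes. The median log2 ratio over all tested genes was 0.06 in batch 1 and 0.05 in batch 2.

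The 25 genes with the highest ratios covered transcription, kinases, lipid mediators and the cytoskeleton. St18, a zinc-finger transcription factor, had 2246 and 2122 CPM in tuft cells, against 3.49 and 3.68 CPM in other epithelial barcodes. Among those barcodes it stood at 117 and 201 CPM in enteroendocrine ones, so it was shared with another secretory type. Matk, a kinase that restrains Src-family kinases, had 669 and 869 CPM in tuft cells, against 0.534 and 0.403 CPM. Fabp1, a fatty acid binding protein of absorptive cells, was low in the other epithelial barcodes of this colon (0.102 and 0.302 CPM) but had 551 and 548 CPM in tuft cells, where 42.7% and 39.0% of the cells held a UMI. Its UMIs were unevenly spread, since 3 cells held 55.3% of them in batch 1 and 85.2% in batch 2, where 129 of 176 were in 1 cell. Nebl (nebulette, an actin-binding protein) had 606 and 925 CPM in tuft cells, Dgki (a diacylglycerol kinase) 365 and 411 CPM, and Fyb (an adaptor of immune signalling) 717 and 910 CPM.

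The 10 genes with the lowest ratios belonged mostly to other secretory cells. They were Clca1, Fcgbp, Zg16 and Muc2 (goblet mucus), Chga, Chgb and Reg4 (enteroendocrine cells, Reg4 also goblet cells), Mptx1 (a mucosal pentraxin), Sval1 and Ramp1. Clca1 had 2.01 and 0 CPM in tuft cells, against 383 and 579 CPM in other epithelial barcodes. A count of 0 in the tuft sums allows a level of up to 3.01 CPM in batch 1 and 9.35 CPM in batch 2. Zg16 had 79.2 and 196 CPM in tuft cells, against 6233 and 11902 CPM, and 5043 and 10522 CPM in free RNA. Muc2, Chga and Chgb were limited by the rule itself.

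The transcription factor list had 12 of 19 genes at testable levels, of which 8 were at least 4-fold higher in tuft cells, 1 was lower and 3 lay between. In these lists a gene lay between when it did not pass 4-fold in the same direction in both batches. Such a gene may have passed in 1 batch. The median log2 ratio of this list was 3.79 and 4.79, against 0.06 and 0.05 over all genes. Pou2f3, the POU-domain factor required for tuft cells (chr9:43123939-43210369, minus strand), had 172 and 190.1 CPM in tuft cells, against 2.67 and 2.44 CPM in other epithelial barcodes. Its coactivator gene 1810046K07Rik (chr9:51289686-51328917, minus strand), also known as Pou2af2, had 88.2 and 203 CPM in tuft cells, against 0.375 and 0.181 CPM. Spib, an ETS factor, had 138 and 162 CPM in tuft cells, against 0.784 and 2.84 CPM, and the homeobox gene Hmx2 had 61.2 and 106 CPM, against 0.0227 and 0.0201 CPM. Gfi1b and Hmx3 had 20.1 to 53.0 CPM in tuft cells, and Hmx3 was at 0 in all other epithelial barcodes. Atoh1, which drives goblet and enteroendocrine fate, was the 1 gene lower in tuft cells, with 2.01 and 0 CPM, against 39.3 and 50.8 CPM. Sox9, which marks progenitors and tuft cells in the intestine, lay between, with 363 and 551 CPM in tuft cells, against 106 and 99.5 CPM.

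The octamer ATGCAAAT (ATTTGCAT on the other strand) is the classic site bound by POU-domain octamer factors, the family of Pou2f3, so the RefSeq promoter windows of the genes high in tuft cells were searched for it on both strands. The windows ran from 250 bases before to 50 bases after each annotated start in GRCm38.p6. Of all 32851 windows, 570 (1.74%) held the octamer, which is 532 of 27025 genes (1.97%). Of the 311 genes high in tuft cells, 232 matched a window by symbol, and 12 of these (5.17%) held it, in 12 of their 310 windows (3.87%). These are descriptions of letters in a window, not of binding. The 12 genes were 1810046K07Rik, 4930518J21Rik, Ano7, Cables2, D130040H23Rik, Hpgds, Kctd12, Ly6g6d, Pfkfb3, Pnpla3, Stox2 and Zfp428. The 250 bases before the start of 1810046K07Rik are shown because the Pou2f3 coactivator gene held 2 copies, 86 and 55 bases before its start, in opposite orientations. The stretch is chr9:51328919-51329168 on the minus strand, written 5′ to 3′ with the octamers in capitals.
1810046K07Rik: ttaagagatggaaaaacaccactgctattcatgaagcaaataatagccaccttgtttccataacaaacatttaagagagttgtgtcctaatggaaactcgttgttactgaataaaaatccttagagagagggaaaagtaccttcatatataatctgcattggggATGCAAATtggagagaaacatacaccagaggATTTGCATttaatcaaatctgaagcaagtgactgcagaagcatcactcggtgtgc

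The sites of 3 further genes described below are shown with 11 bases on either side, in the direction of the gene and with the octamer in capitals, because these genes belong to the lipid mediator, taste and immune-type lists read below. They lie at chr6:65144886-65144915 (minus strand, Hpgds), chr14:102982779-102982808 (minus strand, Kctd12) and chr17:35081269-35081298 (minus strand, the first of 2 copies in Ly6g6d). The Hpgds octamer lies 174 bases before its RefSeq start. It is nevertheless inside the span of the gene ID counted, chr6:65117293-65144908 on the minus strand, so it is not upstream of that start. The Ly6g6d site sits inside the annotated span of its neighbour Ly6g6f, chr17:35080480-35085610 on the same strand. That RefSeq start differs from the gene ID counted in the files, whose Ly6g6d span of chr17:35071443-35078065 lies apart from Ly6g6f, so the printed letters may belong to a transcript other than the one counted.
Hpgds: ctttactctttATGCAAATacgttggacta
Kctd12: cagcgtttagcATGCAAATgcattccccgc
Ly6g6d: ccatgtgtgtgATTTGCATgtgtgcatgca

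**Figure D2:**
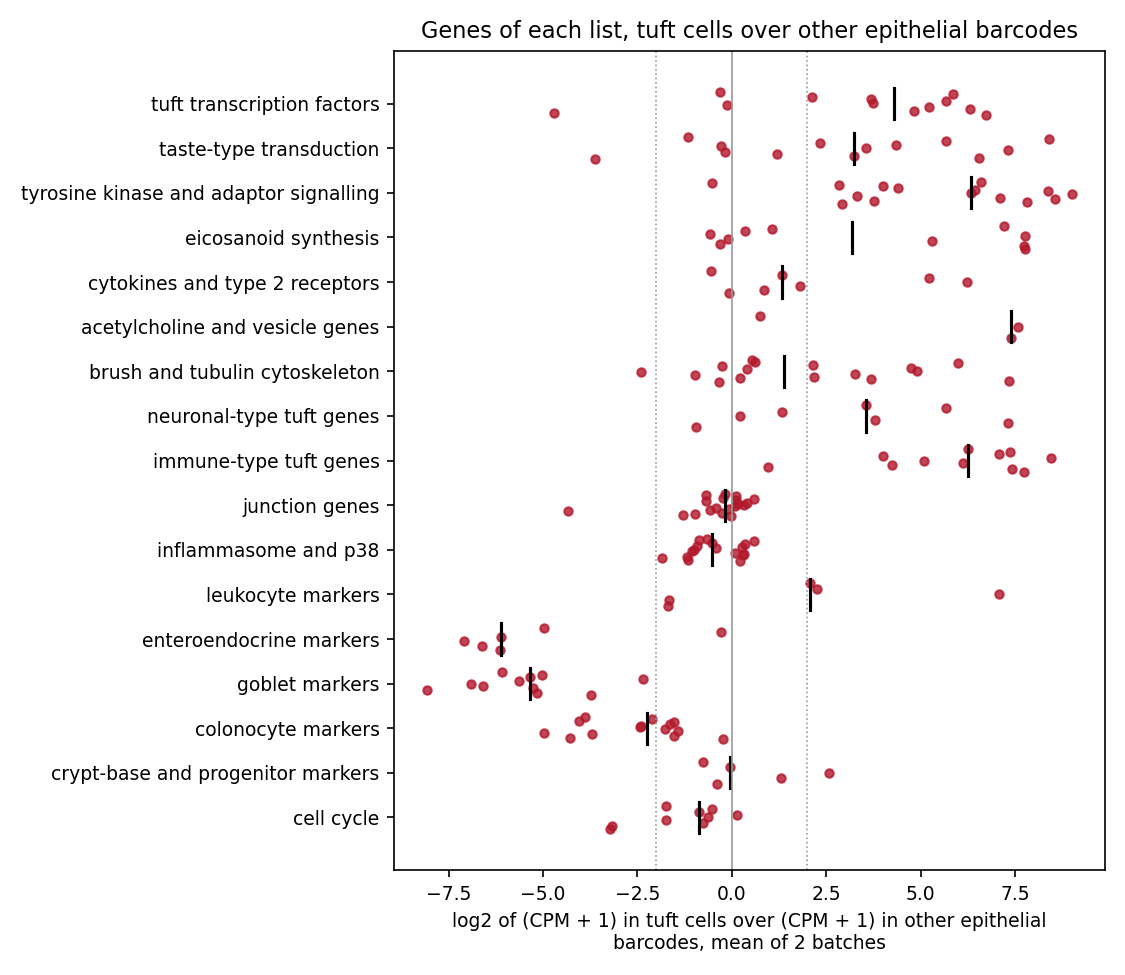
Each point is a tested gene of a list, placed at the log2 ratio of CPM plus 1 in tuft cells over other epithelial barcodes (mean of the 2 batches), with a black bar at the list's median and dotted lines at 4-fold. The 5 genes that chose the cells are left out, while Muc2, Chga and Chgb, which the rule capped, are kept in. Most kinase and immune-type tuft genes lie to the right of the 4-fold line, as do 8 of 13 taste and 5 of 10 lipid genes. Junction and inflammasome genes gather around 0, and goblet and enteroendocrine markers lie far to the left.

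The taste-type list held 4 of the genes that chose the cells (Rgs13, Gnat3, Sh2d6 and Trpm5), which are left out of its counts. Of the other 21 genes 13 were testable, 8 were at least 4-fold higher in tuft cells, 1 was lower and 4 lay between, with a median log2 ratio of 3.01 and 3.47. Along the cascade, Gng13 (the gamma subunit paired with gustducin) had 219 and 162 CPM in tuft cells, against 0.205 and 0.161 CPM in other epithelial barcodes. Plcb2, the phospholipase of the cascade, had 47.1 and 65.4 CPM in tuft cells, against 0.114 and 0.101 CPM. For the calcium store, the receptor Itpr2 had 239.6 and 371 CPM in tuft cells, against 22.5 and 26.8 CPM, while Itpr3, the form used by taste buds, had 24.1 and 34.3 CPM, against 32.1 and 38.2 CPM. The inositol trisphosphate receptor that stood out in these cells was therefore Itpr2 and not Itpr3.

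Receptors upstream of the cascade were mostly at or near 0. Among the taste receptors, Tas1r1, Tas2r108, Tas2r131 and Tas2r143 had no UMI in any tuft cell, and Tas1r3 had 2 UMIs in each batch. Sucnr1, the succinate receptor of small-intestinal tuft cells, had 18 and 6 UMIs (18.0 and 18.7 CPM) and fell just under the 20 CPM limit. The short-chain fatty acid receptor Ffar3 had 88.2 and 103 CPM in tuft cells, against 0.0227 and 0.0201 CPM in other epithelial barcodes, whereas its relative Ffar2 had 4.01 and 0 CPM in tuft cells, against 23.5 and 29.6 CPM. These related receptors thus lay on opposite sides, and Ffar2 stood at 111 and 166 CPM in enteroendocrine barcodes.

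Of 19 tyrosine kinase and adaptor genes, 15 were testable, 14 were at least 4-fold higher in tuft cells and only Trib1 lay between, with a median log2 ratio of 5.83 and 6.81. Their summed level was 4861 and 6122 CPM in tuft cells, against 278 and 291 CPM in other epithelial barcodes. Besides Matk the list held Bmx (a Tec-family kinase, 216 and 318 CPM in tuft cells), Vav1 (an exchange factor of blood cells, 164 and 221 CPM) and Plcg2 (a phospholipase of immune receptors, 242 and 308 CPM). The phosphoinositide 3-kinase gamma complex was present with both its regulatory subunit Pik3r5 (275 and 467 CPM) and its catalytic subunit Pik3cg (141 and 246 CPM), beside the opposing phosphatase Inpp5d (189.5 and 289.8 CPM). In other epithelial barcodes none of these 6 genes exceeded 2.57 CPM.

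Lipid mediator genes divided by branch. Of 17 listed, 10 were testable, 5 were at least 4-fold higher and 5 lay between, with a median log2 ratio of 3.07 and 3.30. Of the leukotriene C4 branch, Alox5, Alox5ap and Ltc4s were high, whereas Mgst2 and Pla2g4a of the same list lay between. Alox5 (5-lipoxygenase) had 202 and 287 CPM in tuft cells, against 0.114 and 0.101 CPM in other epithelial barcodes. Its activating protein Alox5ap had 308 and 558 CPM in tuft cells, against 0.796 and 1.11 CPM, and Ltc4s (leukotriene C4 synthase) had 486 and 661 CPM, against at most 1.73 CPM. The prostaglandin D2 branch was represented by Ptgs1 (cyclooxygenase 1) with 143 and 196 CPM in tuft cells, against 0.0796 and 0.201 CPM, and by Hpgds with 239.6 and 371 CPM, against 6.98 and 6.12 CPM. Lta4h, which makes leukotriene B4 instead, had 42.1 and 43.6 CPM in tuft cells, against 47.3 and 44.4 CPM. Ptgs2, the inducible cyclooxygenase, had 31 UMIs and 1 UMI in the 2 batches, 30 of the 31 in the TG_DSS cells of batch 1 described below.

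Other outputs were rarer. Il25, the tuft cytokine that activates type 2 lymphoid cells, had 35.1 and 37.4 CPM in tuft cells and 1 UMI among all other epithelial barcodes. A UMI of Il25 was seen in 20.2% and 19.5% of tuft cells, and in 7.14% of 84 and 15.8% of 38 when thinned to 2000 UMIs. Il17rb, a subunit of the IL-25 receptor, had 117 and 131 CPM in tuft cells, against 0.807 and 0.523 CPM. The 5 other testable genes of the cytokine list lay within 4-fold, among them Il13ra1 with 214 and 206 CPM in tuft cells, against 54.7 and 63.1 CPM. Il33 and Tslp had at most 2 UMIs in a batch.

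Of the acetylcholine machinery, the synthesising enzyme Chat had 149 and 215 CPM in tuft cells, against 0.0227 and 0.101 CPM in other epithelial barcodes. The vesicular transporter Slc18a3 had 5 and 0 UMIs, and the choline transporter Slc5a7 and the vesicle protein Snap25 had none in 130 cells. Snap25 stood at 372 and 896 CPM in enteroendocrine barcodes. Only 3 of these 14 genes were testable, 2 of them higher in tuft cells (Chat and Nrgn) and Vamp2 between.

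The microvillus and cytoskeleton list had 16 of 21 genes testable, with 7 higher in tuft cells, 1 lower and 8 between, and a median log2 ratio of 1.43 and 1.44. Avil (advillin, an actin bundler of the tuft) had 327 and 421 CPM in tuft cells, against 1.63 and 0.987 CPM, whereas its relative Vil1 (villin) had 233 and 293 CPM, against 156 and 206 CPM. Krt18 had 6058 and 6066 CPM in tuft cells, against 555 and 705 CPM, while its partner Krt8 differed less, with 3899 and 4166 CPM, against 2662 and 3454 CPM. Krt20, a keratin of the mature surface, was lower in tuft cells with 71.2 and 184 CPM, against 453 and 819 CPM. The tubulin Tuba1a had 363 and 439 CPM in tuft cells, against 5.38 and 5.11 CPM, and was shared with enteroendocrine barcodes at 157 and 201 CPM.

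The genes named in the study's title were also read in these cells. Jup had 62.2 and 46.7 CPM in tuft cells, against 32.1 and 38.7 CPM in other epithelial barcodes, and a UMI in 33.7% and 24.4% of tuft cells. Of 19 testable junction genes 18 did not pass 4-fold in the same direction in both batches, and the list had a median log2 ratio of -0.15 and -0.21. The exception was Cldn4, a tight-junction claudin, with 2.01 and 0 CPM in tuft cells, against 29.0 and 40.7 CPM, and 200 and 433 CPM in enteroendocrine barcodes. None of the 17 testable inflammasome and p38 genes passed 4-fold in the same direction in both batches, with a median log2 ratio of -0.57 and -0.59. The p38 kinases Mapk14 and Mapk13 had 43.1 and 31.2 CPM, and 118 and 128 CPM, in tuft cells, against 27.9 and 29.5 CPM, and 217 and 256 CPM, in other epithelial barcodes. Casp1 had 61.2 and 62.3 CPM in tuft cells, against 130 and 150 CPM, and Il18 had 68.2 and 149.6 CPM, against 186 and 225 CPM. For none of the 15 early stress genes and 9 testable cell cycle genes was the 4-fold limit passed in both batches. Among 5 testable crypt-base genes Lgr5, the stem cell receptor, was higher in tuft cells with 62.2 and 34.3 CPM, against 10.3 and 4.53 CPM.

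Markers of other epithelial types were mostly low in tuft cells. Muc2, Chga and Chgb are counted among them but were capped by the rule itself. The caps also removed barcodes rich in these genes, so part of the low levels was set in advance. Of 11 testable goblet markers 10 were at least 4-fold lower and Spdef lay between, with a median log2 ratio of -5.61 and -5.58 (-5.59 and -5.58 with Ang4, at 0 in tuft cells, put at the bound that 3 counts allow). Of 6 testable enteroendocrine markers 5 were lower, with a median log2 ratio of -6.13 and -5.87 (-6.13 and -5.17 with Gcg at its bound). The secretin gene Sct was the exception, with 139 and 137 CPM in tuft cells, against 168 and 173 CPM in all other epithelial barcodes and 6314 and 8423 CPM in enteroendocrine ones. Of 14 colonocyte markers 4 were lower and 10 lay between, with a median log2 ratio of -1.72 and -2.52, and 1735 of the 1798 UMIs of Car1 in batch 2 came from 1 tuft cell. The epithelial markers Epcam and Cdh1 were both present, Epcam with 2039 and 2013 CPM in tuft cells, against 3042 and 3511 CPM.

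Ptprc, the leukocyte surface phosphatase CD45 (chr1:138062861-138175708, minus strand), had 156 and 305 CPM in tuft cells, against 0.648 and 0.624 CPM in other epithelial barcodes. A UMI of it was found in 65.2% and 78.0% of tuft cells, against 1.08% and 1.13% of the deeper other epithelial barcodes. Thinned to 2000 UMIs the shares were 33.3% and 52.6% in tuft cells, against 0.109% and 0.150%. Free RNA held 35.02 and 78.7 CPM of Ptprc. Other epithelial barcodes had been limited to 2 UMIs of Ptprc, Cd52, Tyrobp, Laptm5, Cd3e and Cd79a together, and tuft cells had not. This set part of the gap in Ptprc in advance. By that limit 26 and 15 tuft cells would have failed, 22 and 15 of them with more than 2 Ptprc UMIs. Of the 23 leukocyte markers 5 were testable, and Ptprc alone passed 4-fold in both batches. C1qa and Cd79a had no UMI in any tuft cell. Read with 15 leukocyte genes other than Ptprc, 19.1% and 48.8% of tuft cells held a UMI of any of them, against 33.5% and 48.7% of other epithelial barcodes. Their summed level was 169 and 93.5 CPM in tuft cells, against 61.5 and 96.0 CPM, and 3 tuft cells held 65.7% of those UMIs in batch 1. Cd52, Tyrobp, Cd3e and Cd79a, among the 15, were under the same limit in other epithelial barcodes.

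The tuft cells with and without a Ptprc UMI were set side by side. In the 58 and 32 cells with one, the 15 leukocyte genes summed to 257 and 94.7 CPM, against 19.1 and 88.8 CPM in the 31 and 9 cells without. Alox5ap had 444 and 671 CPM in cells with a Ptprc UMI, against 73.5 and 133 CPM in cells without. Gng13 lay the other way, with 168 and 86.8 CPM in cells with, against 305 and 444 CPM in cells without. However, 3 tuft cells held 60.6% of all Gng13 UMIs in batch 1 and 53.8% in batch 2, so these sums rest on few cells. A Gng13 UMI was found in 10 of 58 and 9 of 32 cells with, against 11 of 31 and 5 of 9 cells without. Dclk1 had 2845 and 3477 CPM in cells with, against 1516 and 1998 CPM in cells without. These directions were the same in both batches, whereas those of Trpm5, Il25 and Nrep differed between batches. Siglecf was higher with a Ptprc UMI in both batches (144 and 118 CPM, against 84.4 and 104 CPM). Rac2 and Cd300lf were higher with one in batch 1 only, and in batch 2 each had 237 CPM with and without. The split was made on the cells' own counts, so it is a description with no test.

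**Figure D3:**
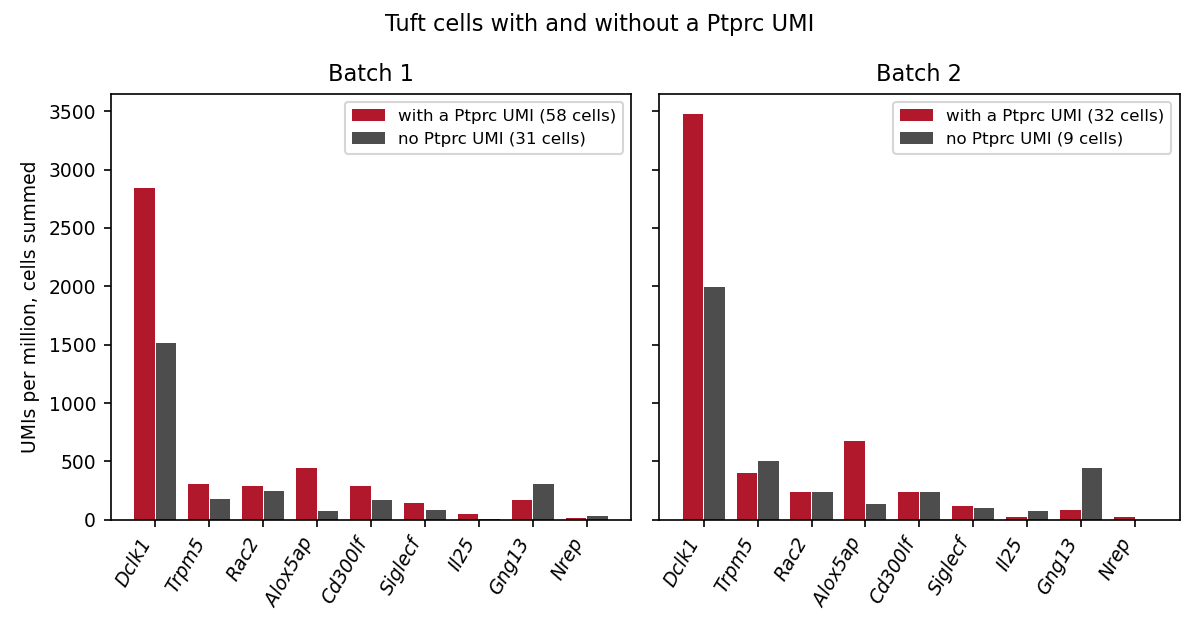
Levels of 9 genes (CPM, cells summed) in tuft cells with a Ptprc UMI (red) and without one (grey), batch 1 left and batch 2 right. Dclk1 and Alox5ap were higher with a Ptprc UMI and Gng13 lower in both batches, but 3 tuft cells held 60.6% and 53.8% of all Gng13 UMIs. Trpm5, Il25 and Nrep changed direction between batches, and Rac2 and Cd300lf did not differ in batch 2.

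Published mouse work has described tuft cells of a neuronal type and of an immune type, so both gene lists were read. Of 11 testable immune-type genes 10 were at least 4-fold higher in tuft cells than in other epithelial barcodes and Cd47 lay between, with a median log2 ratio of 6.45 and 6.04. Examples are Rac2, a GTPase of blood cells (275 and 237 CPM in tuft cells, against 0.296 and 0.886 CPM), Cd300lf, the mouse norovirus receptor (246 and 237 CPM, against 0.227 and 0.604 CPM) and Siglecf (122 and 115 CPM, against 0.409 and 0.765 CPM). Of 7 testable neuronal-type genes 4 were higher, with a median of 3.11 and 4.00. Across single tuft cells thinned to 2000 UMIs, immune-type genes had a median of 6 and 6.5 UMIs and neuronal-type genes 2 and 2.5. The 2 sums did not oppose each other: Spearman's rho was 0.29 over 84 cells and -0.03 over 38. Immune-type genes and the taste genes outside the rule gave 0.42 and 0.05, and immune-type and lipid mediator genes, which share Alox5ap, 0.62 and 0.30. Cells of 1 batch share a library and differ in RNA quality, and at a few UMIs per cell these coefficients are descriptions.

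Some tuft barcodes also carried UMIs of genes of other cell types. At least 10 UMIs from 17 leukocyte genes or from 12 stromal genes were found in 7 tuft cells of batch 1 and 1 of batch 2. The highest leukocyte counts in batch 1 were 299, 173 and 44 UMIs, and 1 cell held 272 stromal UMIs. Whether these 8 barcodes each held more than 1 cell was not tested. Over all tuft cells the 12 stromal genes summed to 293 and 24.9 CPM, against 7.46 and 10.5 CPM in other epithelial barcodes, all 240 Dcn UMIs lay in 1 cell, and Acta2, Cdh5, Col1a1 and Myh11 were at 0. Without the 8 barcodes, 350 of 6659 genes were at least 4-fold higher in tuft cells, 307 of them among the 311 above. Gfi1b, Mvb12b, Shh and Ddah2 no longer passed, and Sucnr1 and Espn were among 43 that now did. Il1b shows the effect on a single gene: it had 250 UMIs in the tuft cells of batch 1, of which 122 and 98 were in 2 cells, and 3 UMIs in batch 2.

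The tags could be called on few tuft cells. Of the 130 cells, 21 were labelled TG_DSS (11 and 10 in the 2 batches), 18 TG_WT (10 and 8), 15 Ctrl_DSS (7 and 8) and 10 Ctrl_WT (9 and 1). Another 60 carried no tag above threshold and 6 more than 1. In batches 1 and 2 tuft cells made up 3.22% and 7.25% of the epithelial and tuft barcodes labelled TG_DSS, 3.37% and 5.30% of TG_WT, 2.27% and 2.32% of Ctrl_DSS, and 10.98% and 1.85% of Ctrl_WT. The Ctrl_WT shares rest on 9 of 82 and 1 of 54 barcodes and had intervals of 5.14% to 19.8% and 0.0469% to 9.89%. Untagged barcodes were 1.34% and 0.592% tuft cells, lower than any labelled group of the same batch.

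The shares did not differ between tags beyond the spread between batches. The means were 5.23% ± 2.85 for TG_DSS, 4.33% ± 1.37 for TG_WT, 2.30% ± 0.0326 for Ctrl_DSS and 6.41% ± 6.45 for Ctrl_WT (SD, n = 2 batches each). An exact permutation test of tags within batches gave p = 0.75, where 24 arrangements allow no p under 0.0417, and no pair of tags could reach p under 0.333. The tag calls themselves were weak: a rule asking for the highest tag to be 3 times the next gave the same label to 2 and 1 of the TG_DSS cells, 9 and 6 of TG_WT, 2 and 3 of Ctrl_DSS, and 2 and 1 of Ctrl_WT. Under it the test gave p = 0.0833 (exact permutation).

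**Figure D4:**
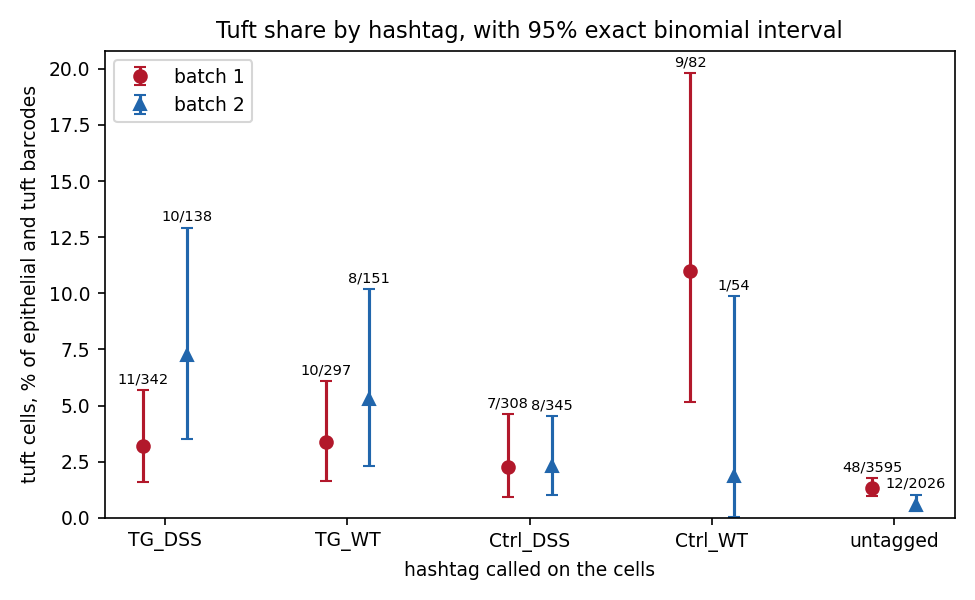
Tuft cells as a share of epithelial and tuft barcodes for each tag, batch 1 (red) and batch 2 (blue), with 95% exact binomial intervals and the counts above them. The intervals of the 4 labelled groups overlap within each batch except that of Ctrl_WT in batch 1, at 9 of 82, which lies above that of Ctrl_DSS.

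Jup, the target of the knockout, was read in every sum of tuft cells. It had 9 and 2 UMIs (50.2 and 28.4 CPM) in cells labelled TG_DSS, 9 and 5 UMIs (104 and 114 CPM) in TG_WT, 2 and 1 UMIs (35.1 and 8.84 CPM) in Ctrl_DSS, and 10 and 0 UMIs (97.7 and 0 CPM) in Ctrl_WT, which had 1 cell in batch 2. In TG_DSS 7 of the 9 UMIs of batch 1 were in 1 cell. Without the barcodes with leukocyte or stromal RNA described above, TG_DSS had 1 and 2 UMIs (14.5 and 28.4 CPM), while TG_WT kept 104 and 114 CPM. With at most 10 UMIs in a sum the gene did not enter the test. TG_DSS stands for JUP-KO mice given DSS under either reading of the tags, and Jup UMIs were found in its cells in both batches. Which exons were deleted is not stated in those sources, and a 3′ tag outside them would check nothing.

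Gene levels were compared between TG_DSS and TG_WT and between TG_DSS and Ctrl_DSS. Pairs with Ctrl_WT were not tested, since it had 1 tuft cell in batch 2, and TG_WT was not set against Ctrl_DSS, which differs from it by name in both genotype and DSS. The 2 comparisons use the same TG_DSS sums. Of 2800 genes tested with edgeR's quasi-likelihood test, with batch as a block, 0 passed a Benjamini-Hochberg adjusted p of 0.05 in TG_DSS against TG_WT (0.0% called) and 0 in TG_DSS against Ctrl_DSS (0.0% called). With no adjustment, p was under 0.05 for 106 genes in TG_DSS against TG_WT (66 higher and 40 lower) and 124 in TG_DSS against Ctrl_DSS (60 higher and 64 lower). DESeq2 called 1 (Reg3b) and 3 (Fabp1, Reg3b and Sycn). On counts simulated from the means and sizes of these sums, the test recovered 82.66% of genes changed by a log2 of 4 in both comparisons. Of genes changed by a log2 of 2 it recovered 20.61% in TG_DSS against TG_WT and 24.85% in TG_DSS against Ctrl_DSS. Changes of that size would thus mostly be missed even there. The simulation gave all genes a shared spread, with no batch difference and no single cell holding most UMIs of a gene. The real sums held such cells, as described below, so these recovered shares may not apply to them. Leaving out 1 sum at a time, with the lone sum left assumed to vary like the others, gave 0 to 35 and 0 to 82 calls. Without the batch 1 sum of TG_DSS the calls were 0 and 22, of TG_WT 0 and 8, of Ctrl_DSS 29 and 82, and of Ctrl_WT 0 and 0. Without the batch 2 sum of TG_DSS they were 35 and 18, of TG_WT 14 and 7, and of Ctrl_DSS 27 and 24. The counts of 0 therefore turned on single sums of a few cells.

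Dclk1 and Rgs13 chose the cells, so their levels by tag are a description with no test. Dclk1 had 1221 and 2807 CPM in TG_DSS, 2706 and 5448 CPM in TG_WT, and 1968 and 1716 CPM in Ctrl_DSS. In batch 1 the TG_DSS sum was below those of TG_WT and Ctrl_DSS, and in batch 2 it lay between them. Without the 8 barcodes with leukocyte or stromal RNA, Dclk1 in TG_DSS of batch 1 was 2463 CPM. That value lay between Ctrl_DSS (1968 CPM) and TG_WT (2706 CPM), the same order as in batch 2. Rgs13 had 742 and 1333 CPM in TG_DSS, 1017 and 1436 CPM in TG_WT, and 439 and 416 CPM in Ctrl_DSS. The TG_DSS sums lay above both Ctrl_DSS sums for Rgs13. Without the same barcodes, Rgs13 in TG_DSS of batch 1 was 1405 CPM, above TG_WT of that batch. Outside the rule, the tuft genes Pou2f3, Ltc4s, Alox5, Hpgds, Chat and Il17rb had adjusted p-values of 0.941 or more by edgeR in both comparisons. Among the fixed lists no gene was called in either comparison. Of 8 taste genes outside the rule 2 had a positive log2 fold change against TG_WT (median -0.21, against 0.07 over all genes tested) and 8 against Ctrl_DSS (median 0.69, against -0.02). Of 13 kinase and adaptor genes 1 was positive against TG_WT (median -0.35) and 12 against Ctrl_DSS (median 0.44). The 12 colonocyte markers lay mostly below 0, with 3 positive against TG_WT (median -2.23) and 2 against Ctrl_DSS (median -1.47). In batch 1, 1 cell held 52.7% of all UMIs of the Ctrl_DSS sum. The TG_DSS sum of batch 1 held 179294 UMIs, and 69034 remained without its 4 barcodes with leukocyte or stromal RNA. The part of colonocyte RNA, of that Ctrl_DSS cell and of those 4 barcodes in these medians was not tested.

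The genes of smallest p rested on few cells. In TG_DSS against TG_WT these 5 were Reg3b, G0s2, Ccl4, Il1b and Saa1. Reg3b, an antimicrobial lectin of the gut lining, had 444 and 2 UMIs in TG_DSS, against 2 and 0 in TG_WT and 3 and 0 in Ctrl_DSS, and 438 of the 444 were in 1 cell. Its log2 fold change was 6.66 ± 1.09 against TG_WT (SE, edgeR adjusted p = 0.0535) and 5.53 ± 0.99 against Ctrl_DSS (adjusted p = 0.136). G0s2, a lipase inhibitor, had 171 and 4 UMIs in TG_DSS, against 0 and 0 in TG_WT and 0 and 1 in Ctrl_DSS, with 93 and 77 of the 171 in 2 cells. The inflammatory genes Ccl4 (a chemokine) and Il1b (a cytokine) had 125 and 229 UMIs in the TG_DSS cells of batch 1, of which 83 and 27, and 122 and 98, were in 2 cells. Saa1, an acute-phase protein, had no UMI in TG_DSS, against 102 and 0 in TG_WT, 100 of them in 1 cell. In TG_DSS against Ctrl_DSS the 5 genes were Reg3b, Ccl4, Ier3, G0s2 and Atf3. Ier3, an early response gene, was spread more widely, with 34 and 19 UMIs in 5 TG_DSS cells of each batch, against 3 and 1 UMIs in TG_WT and 0 and 1 in Ctrl_DSS. Its log2 fold change was 5.11 ± 1.06 against Ctrl_DSS (SE, edgeR adjusted p = 0.188), and 17 and 12 of the 34 and 13 of the 19 UMIs were in single cells. Atf3, a stress-induced transcription factor, had 4 and 0 UMIs in TG_DSS, against 16 and 38 in Ctrl_DSS, where 16 and 36 were in 1 cell of each batch.

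The leukocyte markers moved with this result. All 8 tested were positive in TG_DSS against TG_WT (median log2 fold change 3.92) and 7 of 8 against Ctrl_DSS (median 3.01), and none passed the test. In batch 1, 4 of the 11 TG_DSS cells were among the 8 barcodes with leukocyte or stromal RNA. With the 8 barcodes left out, Il1b in the TG_DSS cells of batch 1 was 0 UMIs, against 229 with them, Ccl4 was 0, against 125, G0s2 was 1, against 171, Ier3 was 2, against 34, and Reg3b was 3, against 444. No gene was then called in TG_DSS against TG_WT among 2196 tested (0.0% called), and 11 were called in TG_DSS against Ctrl_DSS (0.501%), a test chosen after these values were seen.

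Of those 11 genes, Fabp1 was higher in TG_DSS and 10 were lower. Fabp1 had 170 and 150 UMIs (2463 and 2127 CPM) in the 7 and 10 TG_DSS cells kept, against 13 and 10 UMIs (228 and 127 CPM) in Ctrl_DSS and 41 and 8 UMIs (474 and 182 CPM) in TG_WT. The TG_DSS sums lay above those of Ctrl_DSS and TG_WT in both batches, but Ctrl_WT had 163 UMIs (2619 CPM) in batch 1, and 151 of the 170 and 129 of the 150 UMIs were in 1 cell each. Its log2 fold change was 3.79 ± 0.49 against Ctrl_DSS (SE, edgeR adjusted p = 0.0035) and 2.80 ± 0.46 against TG_WT (adjusted p = 0.0575). With all tuft cells it was 3.51 ± 0.80 (adjusted p = 0.211) and 2.39 ± 0.76 (adjusted p = 0.751). The 10 lower genes were 2610528A11Rik, Atf3, Sycn, Hao2, Mgat4c, Tstd1, Tmsb4x, Wfdc2, Csrp2 and Klk1. All 10 rested on the same Ctrl_DSS cell within each batch, which held 88.5% to 100% of the Ctrl_DSS UMIs of each gene in batch 1 and 84.7% to 100% in batch 2. These 2 cells had 30014 and 42457 UMIs, 52.7% and 54.04% of the sums kept, with 15 and 5 UMIs of the 5 rule genes. The 10 genes therefore describe 1 cell of 7 in each batch and not the tag group. Sycn, a zymogen granule protein, had 54 and 50 UMIs in the TG_DSS cells kept, against 186 and 610 in Ctrl_DSS, where 178 and 605 were in 1 cell of each batch.

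**Figure D5:**
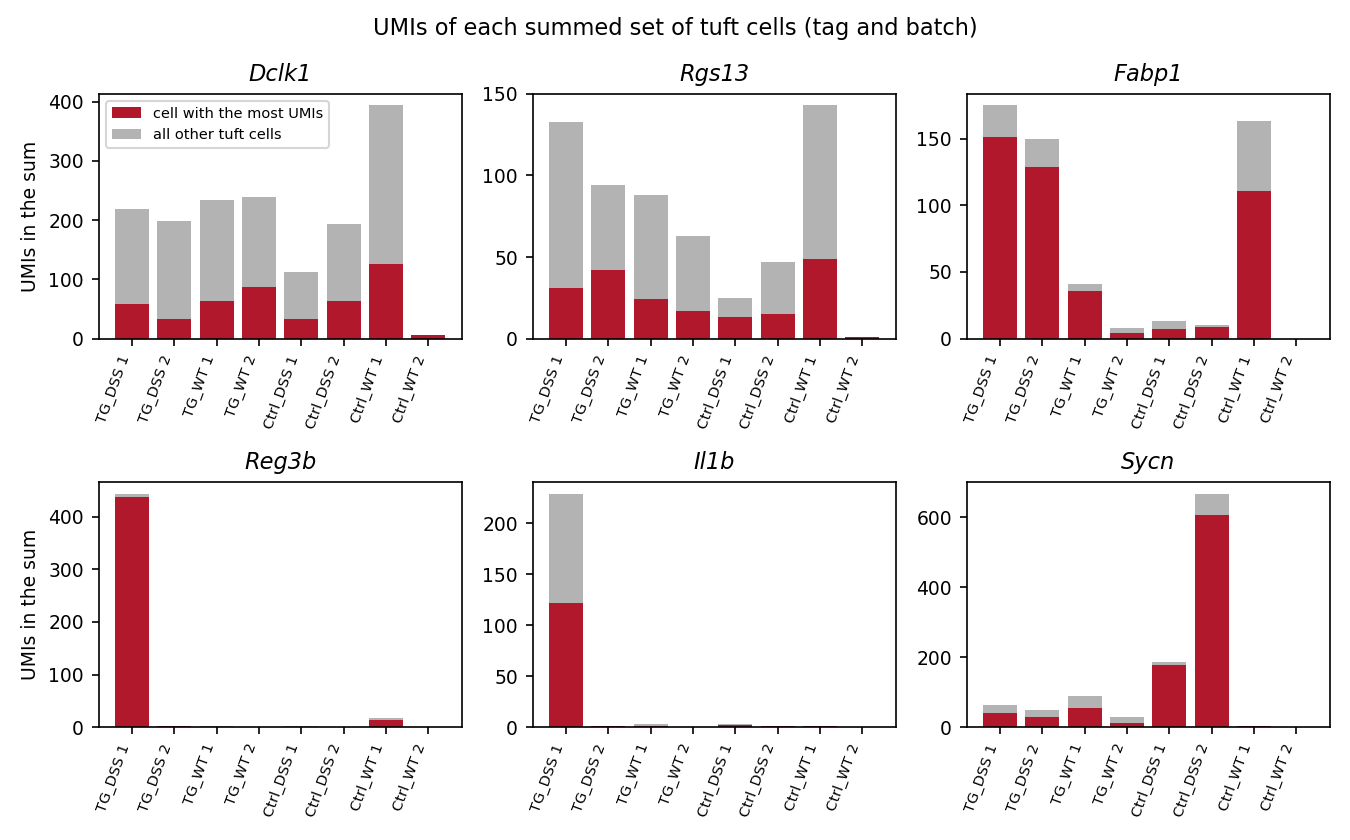
UMIs of 6 genes in each sum of tuft cells by tag and batch, with the cell holding the most UMIs in red and all other tuft cells in grey. Dclk1 and Rgs13 were spread over cells, whereas 1 cell held most UMIs of Fabp1 and Sycn in the highest sums and 438 of 444 UMIs of Reg3b.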

How the data were processed

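Each of the 2 batches was deposited as a raw matrix of UMI counts over all barcodes, with 32285 genes and 4 antibody features in the same matrix. The counts were made by the authors with Cell Ranger 7.0.0 on mm10, per the submitters' processing notes. The annotation release, and whether introns were counted, are not given in the sources used here. Digestion, hashtagging, pooling of the 4 conditions of a batch, the viability sort and 3′ library preparation are per the labels' protocols.

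Barcodes with at least 1000 UMIs, 250 genes and at most 25% mitochondrial UMIs were kept. Doublets were limited by the rule's caps on other cell types, and no caller was run. Barcodes with multiple hashtags were left out of the tag groups but stayed among the tuft cells elsewhere. Other epithelial barcodes had at least 5 UMIs from at least 3 of 7 epithelial markers, at most 2 UMIs of 6 leukocyte and 4 of 5 stromal genes, and a tuft sum of at most 1. The epithelial, leukocyte and stromal limits were not put on tuft cells, of which 61 and 25 would have passed them. Hashtags were called per feature and batch from a mixture of 2 components on log counts. Summed cells were compared as CPM plus 1. A gene needed at least 20 CPM in 1 of the 2 cell groups in both batches. The names given are the 25 highest and 10 lowest ratios, with at least 100 CPM in the higher group, and the 5 smallest p-values of each comparison. Other named genes come from 21 gene lists, except those named for the octamer, a split of the cells or a left-out barcode, which were chosen after their values were seen. 1 of the 25 is not reported here. The members and the lists were chosen with earlier results of these data known.

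Sums of at least 5 tuft cells per hashtag and batch (7 sums, 2 residual degrees of freedom) were tested with edgeR 4.0.16 (quasi-likelihood, TMM, batch as a block, Benjamini-Hochberg adjustment) in R 4.3.3. DESeq2 1.42.0 served as an alternative. Batch is the block because the labels' protocols say that the conditions of a batch were pooled. Deviations from the hashtag means correlated between same-batch sums at -0.09, -0.10 and 0.25. The test was checked on simulated data of 2724 genes. Clustering of hashtags and thinning used Python 3.11.15, scikit-learn 1.9.0, numpy 2.4.6, scipy 1.17.1 and pandas 2.3.3. Alternatives covered the tuft rule, mitochondrial limit, pseudocount, filters, thinning, tag rule, normalization and each left-out batch or sum.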

Additional observations from a re-analysis of the deposited data

How the results depend on the processing

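A limit of 10% mitochondrial UMIs left 61 of the 130 tuft cells and shares of 1.15% and 0.883% of epithelial barcodes, while the other tuft rules gave 122 to 154 cells. The hashtag test of shares gave p = 0.0833 to 0.667 (exact permutation) under its alternatives. The 311 genes at least 4-fold higher became 183 with a pseudocount of 10 CPM, 185 at 8-fold, 493 with no filter on low values and 206 in tuft cells with no Ptprc UMI. Leaving out a batch, so that 1 batch alone had to pass, gave 391 to 568. Over 35 named genes and 5 settings, 90 of 175 log2 ratios moved by less than 1 SD between batches, 85 moved further and 0 changed sign.

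For TG_DSS against TG_WT and TG_DSS against Ctrl_DSS, DESeq2 called 1 and 3 genes and no filter on low counts gave 16 and 13. Leaving out 1 sum gave 0 to 35 and 0 to 82. Leaving out the 8 barcodes with leukocyte or stromal UMIs, chosen after seeing the data, gave 0 and 11. The causes were not tested. RLE size factors gave 0 and 0. A minimum of 3 cells left the same 7 sums and so the same fit, with 0 and 0. With no replicate block the counts were 0 and 0 (113 and 117 genes at an unadjusted p under 0.05). The 10% mitochondrial limit, the highest-tag rule and sums of at least 10 cells were not run for genes, since no pair then had enough sums. Few tuft cells per hashtag limit every comparison between tags.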

Other observations

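Tuft cells with and without a UMI of Fabp1 were set side by side after their values had been seen, at 2000 UMIs per cell and without the 8 barcodes with leukocyte or stromal UMIs, as a description with no test. There were 25 cells with and 52 without in batch 1, and 8 and 29 in batch 2. Of 1661 genes 6 were at least 4-fold higher with Fabp1 in both batches (0.361%) and 28 lower (1.69%). The 6 were 4930570D08Rik, Cst6, U90926, Atp6v0e, 1700037H04Rik and Ier3ip1. The genes named next as higher with Fabp1 were not among the 6, each lying under 4-fold in at least 1 batch. They were picked after their values were seen, so by themselves they do not mark a type of tuft cell. Siglecf, a sialic acid receptor, had 480.0 and 312 CPM in cells with Fabp1, against 76.9 and 103 CPM in cells without. Folr1, a folate receptor, had 520.0 CPM in cells with Fabp1, against 48.1 CPM in cells without, in batch 1, and was higher with Fabp1 in batch 2 also. Matk, Tm4sf1, Ly6g6f, Ly6g6d, 1810046K07Rik and Il17rb were also higher with Fabp1 in both batches. Il17rb, for example, had 460.0 and 312 CPM in cells with, against 144 and 103 CPM in cells without.

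Dclk1, a gene of the rule, had no common direction in this split, with 4800.0 and 4062 CPM in cells with Fabp1, against 3962 and 4517 CPM in cells without. Sox4 and Hspa1a were among the 28 lower genes. Sox4, a factor of early tuft and enteroendocrine progenitors, had no UMI in cells with Fabp1, against 221 and 172 CPM in cells without. The heat shock gene Hspa1a had 80.0 and 62.5 CPM in cells with Fabp1, against 509.6 and 345 CPM in cells without. In these sums 1 UMI was worth 20.0 and 62.5 CPM in cells with Fabp1, against 9.62 and 17.2 CPM in cells without, so 0 UMIs bound a level only loosely.

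Gng13, found in 23.6% and 34.1% of tuft cells, gave a different split of 15 cells with and 62 without in batch 1, and 8 and 29 in batch 2. Of 1744 genes 8 were at least 4-fold higher with Gng13 in both batches (0.459%) and 19 lower (1.09%), and the genes named here were among neither. Gnai2, a G protein alpha subunit, had 767 and 812 CPM in cells with Gng13, against 315 and 276 CPM in cells without. Nebl had 633 and 625 CPM in cells with, against 1234 and 1534 CPM in cells without. Ptprc had 100.0 CPM in cells with Gng13, against 266 CPM in cells without, in batch 1, and was lower with Gng13 in batch 2 also. Here 1 UMI was worth 33.3 and 62.5 CPM in cells with Gng13, against 8.06 and 17.2 CPM in cells without. The Ptprc level with Gng13 therefore rests on few UMIs.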
